A study of Mus musculus with 16 samples.

Results

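The 9 genes Mtor, Rptor, Rictor, Tsc1, Tsc2, Rheb, Akt1, Akt2 and Sgk1 encode kinases of the PI3K, AKT and mTOR pathway, their partners and their direct regulators, and they are described here by name among 16475 genes tested. They were chosen as a list of pathway members and not by a rule on their measured values, although earlier results of these data were known. In primary mouse CD4+ T cells, 16 Affymetrix arrays read either cytosolic mRNA or polysome-associated mRNA, the latter from the gradient fractions of transcripts that carry 3 or more ribosomes. The cells were sorted as Foxp3+ or Foxp3- by a GFP reporter and taken directly ex vivo or after activation in culture, which gives 8 groups of 2 arrays. The design asks how each mRNA differed between the 2 subsets, how it changed with activation and whether its normalised polysome level differed from its cytosolic level.

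All groups came from GFP-Foxp3 knock-in mice of strain C57BL/6, females of 6 to 12 weeks, with cells from lymph nodes and spleens. The reporter allele was carried by every animal, Foxp3- controls included. The Foxp3+ sort separates cells that express the factor, and does not separate regulatory T cells formed in the thymus from those formed elsewhere. The Foxp3- sort is a mixture of all other CD4+ T cells. Activated cells were cultured for 36 h on plate-bound CD3 and CD28 antibodies (5 µg/ml) with recombinant human IL-2 (100 U/ml). Cycloheximide (100 µg/ml), which holds ribosomes on mRNA, was in all buffers for ex vivo cells and was added at the end of culture to activated cells. Each ex vivo sample was a pool of RNA from 2 experiments, and replicates were biological duplicates.

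PI3K makes the membrane lipid PIP3 after T cell receptor and costimulatory signals, and AKT kinases are recruited by it. mTOR works in 2 complexes: mTORC1, defined by RAPTOR (Rptor), promotes translation and growth when the small GTPase RHEB is active, and TSC1 with TSC2 keeps RHEB inactive until AKT phosphorylates TSC2. mTORC2, defined by RICTOR, phosphorylates AKT and the related kinase SGK1, whose own mRNA is short-lived and strongly inducible. Regulatory T cells are known for a restrained AKT response, and the balance of these kinases is known to bear on how CD4+ T cells differentiate. Much of the control over these proteins is by phosphorylation or by GTP binding, which mRNA levels do not show.

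All 6 matched markers of CD4+ T cells lay above the array median on every array. The mean log2 level of 7 regulatory T cell markers was 7.83 to 9.68 over the Foxp3+ arrays and 4.62 to 5.70 over the Foxp3- arrays. The 2 replicates of a group correlated at r = 0.98 to 0.99 across genes ex vivo, at 0.94 in activated Foxp3- cells and at 0.89 in activated Foxp3+ cells, so the activated Foxp3+ values carry the widest spread. The scan names fall into 3 series: all ex vivo arrays, activated Foxp3- arrays and activated Foxp3+ arrays. The array series therefore cannot be told apart from activation, nor from the subset among activated cells. Between the 3′ and 5′ control probe sets for actin, the log2 signal differed by 4.16 to 4.64 in ex vivo Foxp3+ cells, 0.82 to 1.38 in ex vivo Foxp3- cells and -0.59 to -0.20 in activated cells. For Gapdh the subsets lay closer, at 3.51 to 4.12 in ex vivo Foxp3+, 2.26 to 3.37 in ex vivo Foxp3- and 1.04 to 1.32 in activated cells.

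All values below are log2 intensities and all differences are log2 differences, so that a difference of 1 is a 2-fold change. Array medians ran from 4.84 to 5.06, and values under that range are near background, where differences are compressed and their size is uncertain. Levels are compared within a gene, never between genes. In these bulk samples, fewer cells with an mRNA and less of it in each cell cannot be told apart.

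**Figure D1:**
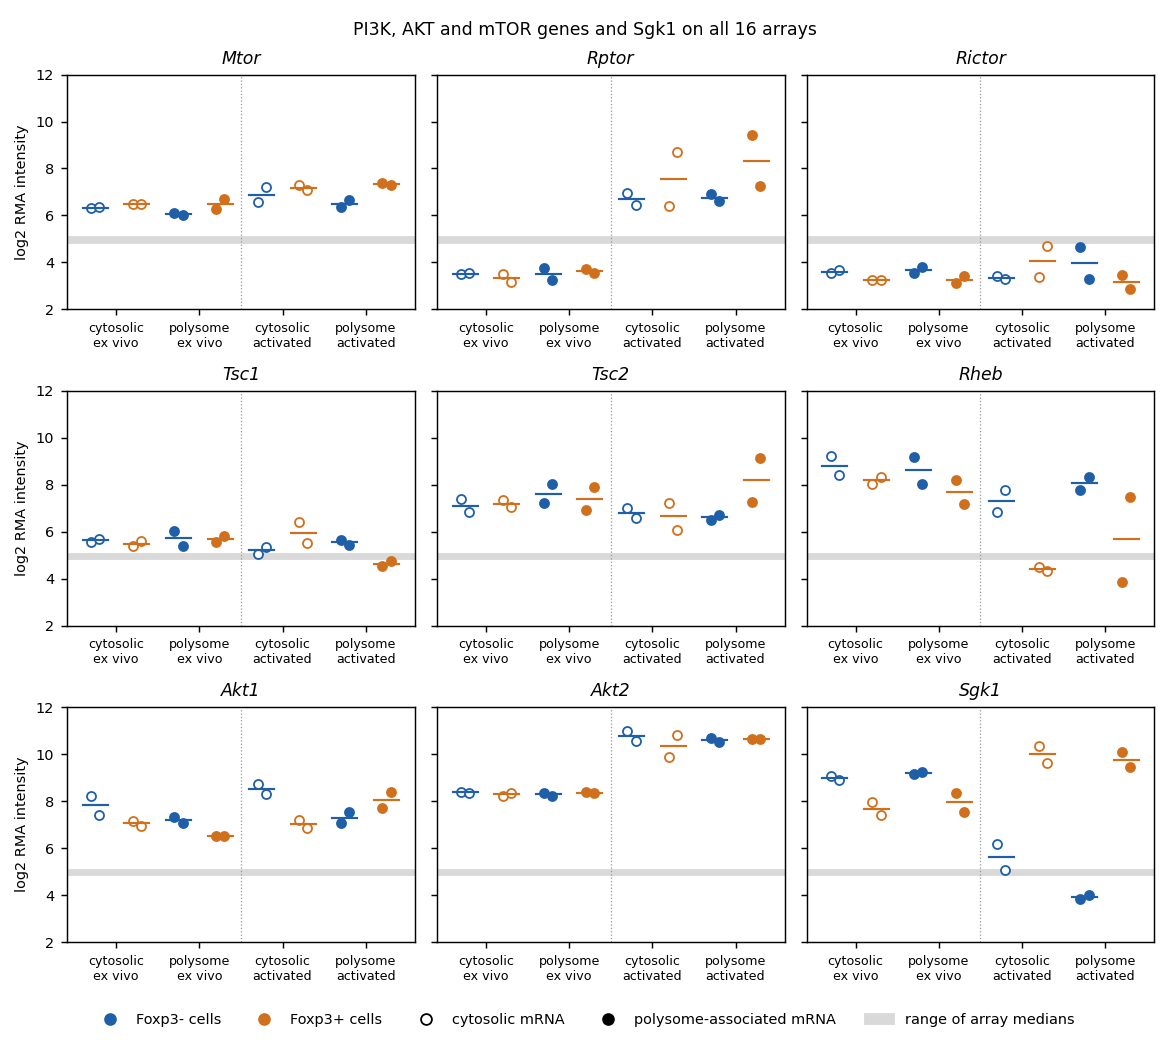
Log2 intensity (vertical axis) of each of the 9 genes on all 16 arrays, grouped along the horizontal axis by RNA fraction and state, with Foxp3- cells in blue and Foxp3+ cells in orange. Open points are cytosolic mRNA, filled points polysome-associated mRNA, bars the means of 2 arrays, and the grey band the range of array medians (4.84 to 5.06). Akt2 and Rptor stepped up from ex vivo to activated cells in both subsets, whereas Sgk1 moved in opposite directions in the 2 subsets and Rictor stayed under the band.

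Rptor and Akt2 rose with activation in both subsets and both RNA fractions. Sgk1 fell in activated Foxp3- cells and rose in activated Foxp3+ cells, so that the subset with the lower mean Sgk1 ex vivo, a difference that did not pass its test, had the higher one after 36 h. Rheb fell in the cytosolic mRNA of activated Foxp3+ cells. Mtor, Tsc1 and Akt1 moved by smaller amounts, mostly in activated Foxp3+ cells. Tsc2 passed no activation test and was called between activated subsets in polysome-associated mRNA, and Rictor passed no test.

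Mtor encodes the kinase shared by both mTOR complexes. In ex vivo Foxp3- cells it measured 6.30 and 6.34 in cytosolic and 6.11 and 6.02 in polysome-associated mRNA, and in ex vivo Foxp3+ cells 6.50 and 6.48 in cytosolic and 6.27 and 6.68 in polysome-associated mRNA. After activation, Foxp3- cells gave 6.56 and 7.21 in cytosolic and 6.34 and 6.64 in polysome-associated mRNA, and Foxp3+ cells gave 7.31 and 7.07, then 7.39 and 7.30. The 4 activated Foxp3+ arrays were above all 4 ex vivo Foxp3+ arrays. Polysome-associated Mtor rose with activation in Foxp3+ cells by 0.87 (standard error 0.24, adjusted p = 0.0214), a call lost in 5 of 22 alternatives, among them without array 2 or 14 (adjusted p up to 0.156). The cytosolic difference, 0.70, narrowly missed the threshold (adjusted p = 0.0506), and those of Foxp3- cells, 0.56 and 0.43, did not pass (adjusted p = 0.119 and 0.221). Among activated cells, polysome-associated Mtor was higher in Foxp3+ than in Foxp3- cells by 0.86 (standard error 0.24, adjusted p = 0.0384). This call was lost in a fit to the compared groups only, with array weights and without array 10, an activated Foxp3- polysome array.

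Rptor encodes RAPTOR, the scaffold that presents substrates to mTORC1. Its 8 ex vivo values ran from 3.19 to 3.77, all under the lowest array median, with the 2 subsets and 2 fractions overlapping. Activated Foxp3- cells gave 6.97 and 6.45 in cytosolic and 6.90 and 6.62 in polysome-associated mRNA. Activated Foxp3+ cells gave 6.39 and 8.72 in cytosolic and 9.43 and 7.25 in polysome-associated mRNA, a gap of over 2 between replicates in both fractions. Every activated array lay above every ex vivo array. Rptor rose in Foxp3- cells by 3.19 in cytosolic (adjusted p = 0.00848) and 3.24 in polysome-associated mRNA (adjusted p = 0.00602), and in Foxp3+ cells by 4.21 (adjusted p = 0.00165) and 4.71 (adjusted p = 0.000883), each with a standard error of 0.72. The ex vivo values at background leave the sizes uncertain. Of these 4 calls, the cytosolic call of Foxp3- cells was lost in 1 alternative (without array 3, adjusted p = 0.0532). Between activated subsets, Rptor was 1.58 higher in polysome-associated mRNA of Foxp3+ cells, just short of the threshold of 0.15 (adjusted p = 0.156), with no overlap of the arrays.

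Rictor, the defining subunit of mTORC2, was near background on every array. Its 16 values ran from 2.87 to 4.72, all under the lowest array median of 4.84, and its group means spanned 0.88. The widest gap between replicates was 1.35, in cytosolic mRNA of activated Foxp3+ cells (3.36 and 4.72), which was more than that span. None of its 18 comparisons was called, and at such levels a difference could not have been measured well.

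Akt1 encodes the broadly expressed AKT kinase. Ex vivo Foxp3- cells gave 8.21 and 7.43 in cytosolic and 7.33 and 7.06 in polysome-associated mRNA, and ex vivo Foxp3+ cells gave 7.14 and 6.96, then 6.50 and 6.51. Activated Foxp3- cells measured 8.72 and 8.29 in cytosolic and 7.06 and 7.52 in polysome-associated mRNA. Activated Foxp3+ cells showed the opposite order of fractions, with 7.21 and 6.87 in cytosolic and 7.71 and 8.41 in polysome-associated mRNA. In activated cells, cytosolic Akt1 was thus lower in Foxp3+ cells by 1.46 (standard error 0.32, adjusted p = 0.0163), whereas polysome-associated Akt1 was higher by 0.77 (adjusted p = 0.126). The cytosolic call was lost in 2 of 22 alternatives and the polysome call in 12 of 22. Polysome-associated Akt1 rose with activation in Foxp3+ cells by 1.55 (adjusted p = 0.00484), and its cytosolic level there differed by -0.01 (95% interval -0.72 to 0.70).

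Akt2, the AKT isoform best known for its part in insulin responses, split cleanly by state. Its 8 ex vivo values ran from 8.21 to 8.39. Its 8 activated values ran from 9.88 to 10.98, so that no activated array overlapped an ex vivo array. Akt2 rose by 2.40 in cytosolic (adjusted p = 0.000147) and 2.32 in polysome-associated mRNA (adjusted p = 0.000112) of Foxp3- cells. In Foxp3+ cells it rose by 2.05 (adjusted p = 0.000417) and 2.28 (adjusted p = 0.000218), with a standard error of 0.28 throughout. These 4 calls were kept in all 22 alternatives. Akt2 did not differ detectably between subsets in either state: ex vivo differences were -0.07 (95% interval -0.68 to 0.54) and 0.08 (-0.53 to 0.69), and activated differences -0.43 (-1.04 to 0.18) and 0.04 (-0.57 to 0.65), cytosolic first.

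Tsc1 and Tsc2 encode the 2 proteins of the complex that restrains RHEB, hamartin and tuberin. Tsc1 varied little ex vivo, from 5.39 to 6.03 over 8 arrays. Activated Foxp3- cells gave 5.08 and 5.34 in cytosolic and 5.65 and 5.44 in polysome-associated mRNA. Activated Foxp3+ cells gave 6.42 and 5.51 in cytosolic and only 4.54 and 4.75 in polysome-associated mRNA, the lowest values of the series for this gene and under the lowest array median. Polysome-associated Tsc1 fell with activation in Foxp3+ cells by 1.04 (standard error 0.31, adjusted p = 0.0261) and was lower than in activated Foxp3- cells by 0.91 (-0.91, adjusted p = 0.0682). The first call was lost in 5 of 22 alternatives, among them without array 2, 6 or 14, and the second in 4, among them without array 10 or 14. Its cytosolic level was higher in activated Foxp3+ than Foxp3- cells by 0.76 (adjusted p = 0.13), a call that was lost in 14 of 22 alternatives.

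Tsc2 overlapped between most groups. Its ex vivo arrays ran from 6.82 to 8.02 and its activated Foxp3- arrays from 6.48 to 7.01. Activated Foxp3+ cells gave 7.23 and 6.08 in cytosolic mRNA and 7.27 and 9.12 in polysome-associated mRNA, a gap of 1.85 between the last 2 replicates. Only 1 comparison was called, the polysome-associated subset difference in activated cells, where Tsc2 was higher in Foxp3+ cells by 1.59 (standard error 0.59, adjusted p = 0.0916). Without array 16, which held the value of 9.12, the difference was 0.66 and was not called. The call was lost in 5 of 22 alternatives, the others being a fit to the compared groups only, array weights and leaving out array 10 or 12.

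Rheb encodes the GTPase that switches on mTORC1. Ex vivo Foxp3- cells gave 9.23 and 8.42 in cytosolic and 9.19 and 8.05 in polysome-associated mRNA, and ex vivo Foxp3+ cells gave 8.03 and 8.34, then 8.20 and 7.19. Activated Foxp3- cells measured 6.85 and 7.77 in cytosolic and 7.79 and 8.34 in polysome-associated mRNA. In activated Foxp3+ cells both cytosolic arrays were under the array medians, at 4.49 and 4.34, while the polysome arrays disagreed at 3.87 and 7.50. Cytosolic Rheb fell with activation in Foxp3+ cells by 3.77 (standard error 0.91, adjusted p = 0.0101). In activated cells it was lower in Foxp3+ than Foxp3- cells by 2.90 in cytosolic (-2.90, adjusted p = 0.0631) and 2.38 in polysome-associated mRNA (-2.38, adjusted p = 0.0981). The polysome value turned on the 2 discordant arrays, with -0.56 without array 14 and -4.20 without array 16. The cytosolic subset call was lost with array weights and without array 11 or 15, and the activation call without array 5.

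Sgk1 encodes serum- and glucocorticoid-regulated kinase 1, which shares substrates with AKT and is activated through mTORC2. Its group means spanned 6.07, more than any other gene of the set. Ex vivo Foxp3- cells gave 9.09 and 8.89 in cytosolic and 9.14 and 9.25 in polysome-associated mRNA. Ex vivo Foxp3+ cells gave 7.97 and 7.39 in cytosolic and 8.35 and 7.56 in polysome-associated mRNA. All 4 ex vivo Foxp3+ values were below all 4 ex vivo Foxp3- values.

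After activation the order turned. Activated Foxp3- cells gave 6.19 and 5.05 in cytosolic and 3.84 and 4.01 in polysome-associated mRNA, the latter pair under the lowest array median. Activated Foxp3+ cells gave 10.37 and 9.62 in cytosolic and 10.09 and 9.44 in polysome-associated mRNA, above every other array of the series. Within each subset, no activated array overlapped an ex vivo array.

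From high to low, mean Sgk1 was 9.99 ± 0.53 (SD, n = 2) in cytosolic and 9.77 ± 0.46 in polysome-associated mRNA of activated Foxp3+ cells. Ex vivo Foxp3- cells came next with 9.19 ± 0.08 on polysomes and 8.99 ± 0.14 in the cytosol, then ex vivo Foxp3+ cells with 7.96 ± 0.56 and 7.68 ± 0.41. Activated Foxp3- cells were last, with 5.62 ± 0.81 in cytosolic and 3.92 ± 0.12 in polysome-associated mRNA. In this order no difference between the 2 fractions of the same cells passed its test. The nearest to it was in activated Foxp3- cells, where the polysome level was lower by 1.70 (-1.70, standard error 0.42, adjusted p = 0.0523) and the arrays did not overlap.

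Sgk1 fell with activation in Foxp3- cells, with a difference of -3.37 in cytosolic (10.3-fold, adjusted p = 0.000246) and -5.27 in polysome-associated mRNA (38.6-fold, adjusted p = 9.33e-06). In Foxp3+ cells it rose by 2.31 in cytosolic (4.97-fold, adjusted p = 0.00229) and 1.81 in polysome-associated mRNA (3.51-fold, adjusted p = 0.00895). The standard error was 0.42 in each. The activation change of Foxp3+ cells exceeded that of Foxp3- cells by 5.68 in cytosolic (standard error 0.60, adjusted p = 0.00189) and 7.08 in polysome-associated mRNA (adjusted p = 0.000706). All of these calls were kept in 22 of 22 alternatives, except the polysome rise of Foxp3+ cells, which was lost in a fit to the compared groups only and without array 6 or 14 (adjusted p up to 0.0824).

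Between subsets, cytosolic Sgk1 was higher in activated Foxp3+ cells by 4.37 (20.7-fold, standard error 0.42, adjusted p = 0.000419), with the corresponding polysome difference 5.84. Ex vivo it was lower in Foxp3+ cells by 1.31 in cytosolic (-1.31, adjusted p = 0.185) and 1.24 in polysome-associated mRNA (-1.24, adjusted p = 0.226), neither under 0.15. Those 2 ex vivo differences passed in 9 and 4 of 22 alternatives. The ex vivo subsets also differed in the 3′ minus 5′ control signals given above, whose part in the ex vivo differences of Sgk1 and of all other genes was not tested. These signals also differed between ex vivo and activated cells, by more in Foxp3+ than in Foxp3- cells. Their part in the activation changes of Sgk1 and the other genes, and in how these differed between subsets, was not tested.

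The marker levels of other cells also differed between the activated subsets. The mean level of 14 myeloid markers was 4.62 to 4.90 over activated Foxp3+ arrays and 3.97 to 4.24 over activated Foxp3- arrays, with 3 to 4 and 1 to 2 of the 14 above the array median. For 9 stromal and endothelial markers it was 4.23 to 4.51 against 3.67 to 4.09, and for 7 B cell markers 4.21 to 4.72 against 3.64 to 4.19. For 4 erythroid and platelet markers it was 4.50 to 5.06 against 3.95 to 4.53, and for 7 CD8 T and NK cell markers 4.53 to 4.73 against 4.23 to 4.68. All these list means lay under or within the range of array medians, 4.84 to 5.06. The activated Foxp3+ arrays also had a narrower spread of values, with an interquartile range of 2.62 to 2.90 against 3.03 to 3.43. Whether the marker levels reflect that spread or other cells was not tested. The part of either in the differences of Sgk1, Rheb and the other genes between activated subsets was not tested.

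The sequences of 2 of the 6 annotated Sgk1 starts and of the single Rheb start are shown because these genes changed most between activated subsets. They are the 250 bases before the start in RefSeq on build GRCm38.p6, read 5′ to 3′ on the gene's strand. Capitals mark matches, on either strand, to the E-box CACGTG or the NFAT core GGAAAA, whose opposite strand reads TTTTCC. The first 2 are on chromosome 10, plus strand, at chr10:21993640-21993889 and chr10:21994416-21994665, and the Rheb sequence is on chromosome 5, minus strand, at chr5:24842362-24842611.
Sgk1 start 5: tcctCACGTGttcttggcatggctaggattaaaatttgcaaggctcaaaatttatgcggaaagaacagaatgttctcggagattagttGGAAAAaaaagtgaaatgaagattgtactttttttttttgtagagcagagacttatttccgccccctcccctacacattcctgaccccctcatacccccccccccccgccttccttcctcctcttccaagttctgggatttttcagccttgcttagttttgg
Sgk1 start 6: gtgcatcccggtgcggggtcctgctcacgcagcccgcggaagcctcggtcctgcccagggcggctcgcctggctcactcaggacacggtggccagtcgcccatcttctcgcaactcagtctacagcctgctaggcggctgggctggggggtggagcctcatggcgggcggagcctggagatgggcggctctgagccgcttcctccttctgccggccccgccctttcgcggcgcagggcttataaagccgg
Rheb: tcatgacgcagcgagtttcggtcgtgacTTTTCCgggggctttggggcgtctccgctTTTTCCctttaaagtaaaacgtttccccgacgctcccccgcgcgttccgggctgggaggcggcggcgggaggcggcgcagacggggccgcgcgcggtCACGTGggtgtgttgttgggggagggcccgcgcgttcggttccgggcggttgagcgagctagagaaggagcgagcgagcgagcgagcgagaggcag

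In that of Sgk1 start 5 the E-box lies 246 to 241 bases before the start and the NFAT core 162 to 157 bases before it. No other Sgk1 start, start 6 included, held a match to this E-box, this NFAT core or the further sites named below. In Rheb the E-box lies 96 to 91 bases before the start, and the NFAT core stands on the opposite strand at 222 to 217 and 193 to 188. The 9 genes have 18 such sequences in the table, of which 2 held CACGTG, 2 held GGAAAA, 1 (Akt1 start 2) held the forkhead core TGTTTAC and none held the cAMP response element TGACGTCA or the AP-1 site TGACTCA. Over all 32851 sequences of this length, the shares were 6.02%, 20.4%, 3.17%, 1.55% and 4.46% in that order. A match is a description of the letters, and the gene-level probe set does not show which Sgk1 start was used.

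**Figure D2:**
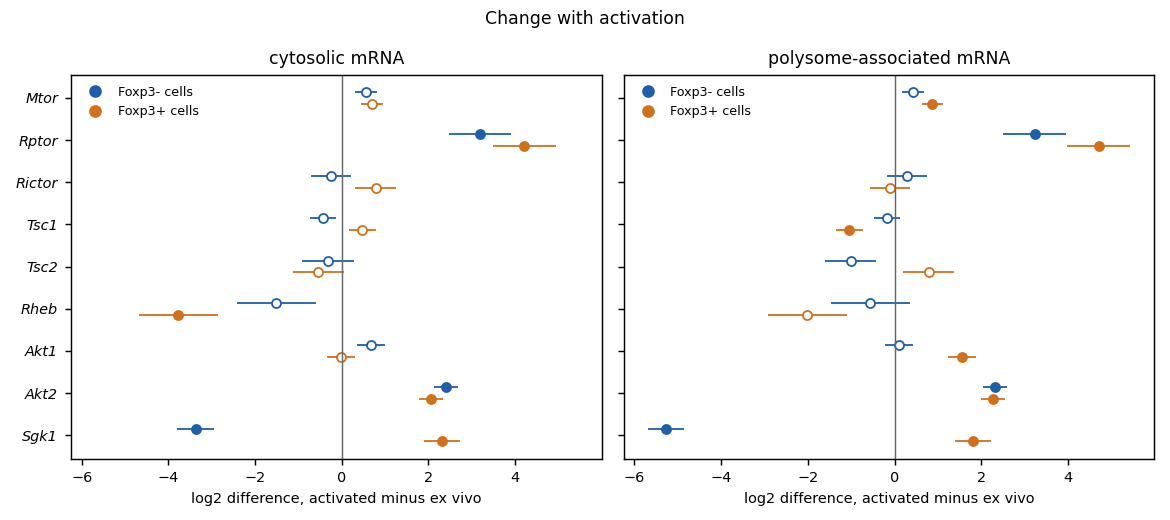
Log2 difference between activated and ex vivo cells (horizontal axis) of the 9 genes (vertical axis) in cytosolic (left) and polysome-associated mRNA (right), Foxp3- cells in blue and Foxp3+ cells in orange. Points are differences of means of 2 arrays, bars are standard errors of the fit, and filled points passed an adjusted p of 0.05. Rptor and Akt2 lie to the right of 0 in all 4 comparisons, while Sgk1 lies at -3.37 and -5.27 in Foxp3- cells and at 2.31 and 1.81 in Foxp3+ cells.

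Counted over the set, activation raised 2 of 9 genes (Rptor and Akt2) and lowered 1 (Sgk1) in the cytosolic mRNA of Foxp3- cells. Of all genes, 13.6% rose and 12.5% fell there. The same 3 genes were called in polysome-associated mRNA, where 14.1% of all genes rose and 16.4% fell. In the cytosolic mRNA of Foxp3+ cells, 3 rose (Rptor, Akt2 and Sgk1) and 1 fell (Rheb), against 16.9% and 14.4% of all genes. In the polysome-associated mRNA of Foxp3+ cells, 5 rose (Mtor, Rptor, Akt1, Akt2 and Sgk1) and 1 fell (Tsc1), against 14.7% and 14.6%. With 9 genes, 1 or 2 calls in a direction are what such shares would give, so the counts of 1 and 2 are no result about the set.

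The difference between subsets in the activation change was called for Sgk1 alone, in both fractions. Over all genes it was called in 2.07% in cytosolic and 2.58% in polysome-associated mRNA. The interval of this difference was wide for most other genes, for example -5.10 to 0.57 for Rheb and -1.24 to 3.28 for Rptor in cytosolic mRNA, so a smaller rise or fall in 1 subset was not detectable with 2 arrays a group. For Akt2 it was narrower, at -1.22 to 0.51 in cytosolic and -0.90 to 0.83 in polysome-associated mRNA.

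**Figure D3:**
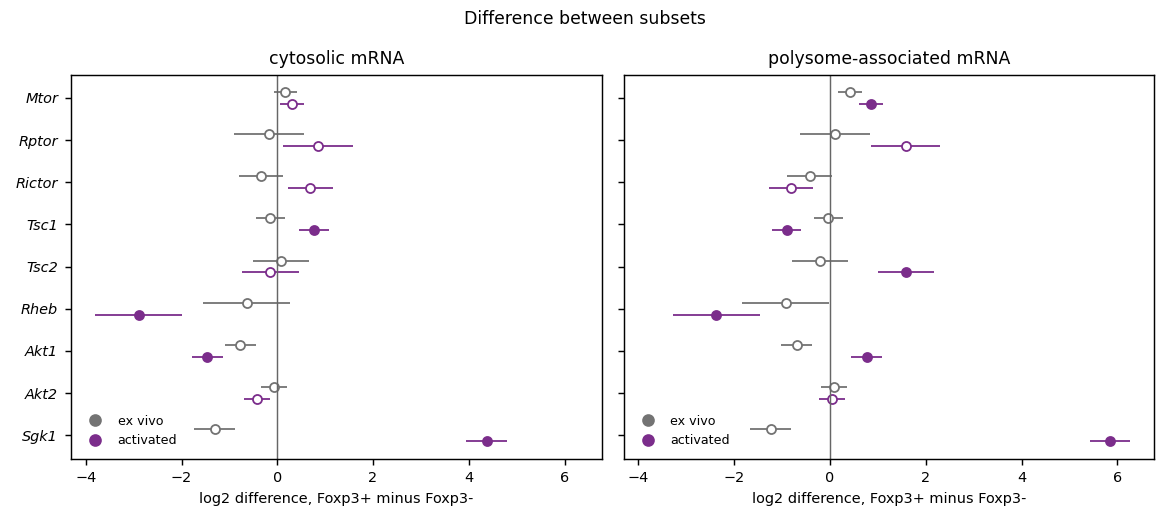
Log2 difference between Foxp3+ and Foxp3- cells (horizontal axis) of the 9 genes (vertical axis) in cytosolic (left) and polysome-associated mRNA (right), ex vivo in grey and activated in purple. Points are differences of means of 2 arrays, bars are standard errors of the fit, and filled points passed an adjusted p of 0.15. No ex vivo point is filled, and Sgk1 moves from -1.31 ex vivo to 4.37 activated in cytosolic mRNA.

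Ex vivo, none of the 9 genes was called between subsets in either fraction. In cytosolic mRNA 2.06% of all genes were higher and 2.58% lower in Foxp3+ cells, and in polysome-associated mRNA 1.62% and 2.25%, so a count of 0 among 9 differs little from these shares. Of all cytosolic calls 44.4% were higher in Foxp3+ cells, and 32.0% were with each array centred on its median. At an unadjusted p of 0.05, limma had Akt1 and Sgk1 lower in cytosolic mRNA and Sgk1 lower in polysome-associated mRNA. Akt1 was lower in ex vivo Foxp3+ cells by 0.77 (-0.77, adjusted p = 0.351) and 0.69 (-0.69, adjusted p = 0.428), with no overlap of the arrays in either fraction.

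In activated cells, 2 of 9 genes were higher in Foxp3+ cells (Tsc1 and Sgk1) and 2 lower (Rheb and Akt1) in cytosolic mRNA, where 13.8% of all genes were higher and 12.2% lower. In polysome-associated mRNA 4 were higher (Mtor, Tsc2, Akt1 and Sgk1) and 2 lower (Tsc1 and Rheb), against 18.7% and 13.7% of all genes. The median difference of all genes was 0.13 and 0.20, cytosolic first, and 0.02 and 0.03 after cyclic loess, so the differences of the 9 genes stand against that shift. Of all calls 53.2% and 57.7% were higher in Foxp3+ cells, and 37.3% and 44.7% were with each array centred on its median. None of the 9 genes that were called changed direction under either scaling. The cytosolic Tsc1 call was lost under both scalings, and the polysome Akt1 call with each array centred on its median. Without array 10 the polysome count fell from 6 to 1, Sgk1. These activated comparisons and the activation comparisons above use the same activated arrays.

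**Figure D4:**
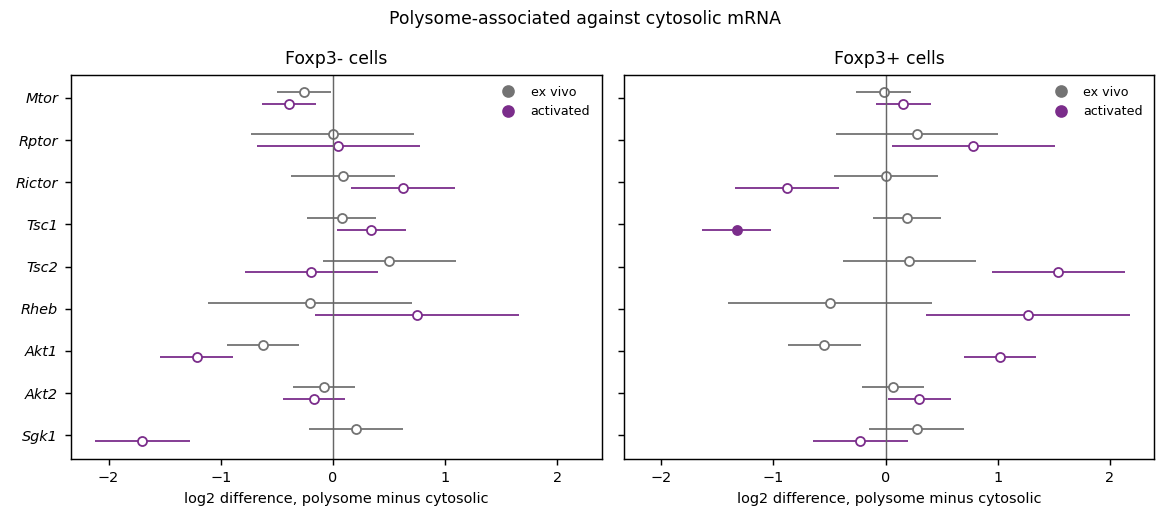
Log2 difference between polysome-associated and cytosolic mRNA (horizontal axis) of the 9 genes (vertical axis) in Foxp3- cells (left) and Foxp3+ cells (right), ex vivo in grey and activated in purple. Points are differences of means of 2 arrays, bars are standard errors of the fit, and filled points passed an adjusted p of 0.05. The single filled point is Tsc1 in activated Foxp3+ cells, at -1.33, and Akt1 lies at -1.21 in activated Foxp3- and at 1.02 in activated Foxp3+ cells.

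Ex vivo, no gene was called between polysome-associated and cytosolic mRNA in Foxp3- cells, where 0.0607% of all genes were, or in Foxp3+ cells, where 0.0364% were. The differences ran from -0.63 (Akt1) to 0.50 (Tsc2) in Foxp3- cells and from -0.55 (Akt1) to 0.28 (Rptor) in Foxp3+ cells, and the Akt1 arrays of the 2 fractions did not overlap in either subset. Intervals were wide, for example -2.21 to 1.80 for Rheb in Foxp3- cells. In activated Foxp3- cells no gene was called, against 3.88% of all genes, with Sgk1 (-1.70) and Akt1 (-1.21, adjusted p = 0.0673) closest to the threshold. In activated Foxp3+ cells 1 was called, Tsc1, against 4.66% of all genes. Its polysome level was lower by 1.33 (-1.33, standard error 0.31, adjusted p = 0.036). That call was lost in 11 of 22 alternatives. Between states, the fraction difference was called for none of the 9 genes in Foxp3- cells, where 0.158% of all genes were called, nor in Foxp3+ cells, where 0.279% were.

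The polysome minus cytosolic difference was then compared between subsets. This asks whether an mRNA stood higher on polysomes in 1 subset, relative to other mRNAs, than its cytosolic level would give. All arrays were normalised together, so a shift common to all mRNAs of a fraction would not show. Ex vivo, none of the 9 genes was called at 0.3, and 0% of all genes were. The limma fit had 193 genes at an unadjusted p under 0.05, none of them among the 9. An analysis of covariance of polysome on cytosolic values called 64 genes ex vivo, again none of the 9. In activated cells 2 were called, against 7.48% of all genes. Akt1 had a difference of 2.23 (standard error 0.46, adjusted p = 0.0339), higher on polysomes in Foxp3+ cells. Tsc1 had a difference of -1.67 (standard error 0.43, adjusted p = 0.0759), lower on polysomes in Foxp3+ cells. Both rest on the model: with the analysis of covariance, Akt1 gave 0.41 (adjusted p = 0.767) and Tsc1 -0.69, neither called. That model called Rptor (2.30, adjusted p = 0.0385), Tsc2 (1.36, adjusted p = 0.0574) and Sgk1 (4.41, adjusted p = 0.136). Its slopes of polysome on cytosolic values were -0.85 for Rptor, -1.56 for Tsc2, 0.33 for Sgk1, -0.25 for Akt1 and -0.29 for Tsc1. The first 2 lie outside the slopes that the study kept, a filter not applied here. A negative slope turns the direction of the correction for the cytosolic level, so the lost calls of Akt1 and Tsc1 also rest on slopes from assumed pairs.

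Around the 9 genes, 88 others of the pathway were listed by role, and 81 matched a symbol on the array. With activation, 7 of the 81 rose and 18 fell in cytosolic mRNA of Foxp3- cells, against 13.6% and 12.5% of all genes. In polysome-associated mRNA 9 rose and 24 fell, against 14.1% and 16.4%. In Foxp3+ cells 16 rose and 22 fell in cytosolic mRNA, against 16.9% and 14.4%, and 14 rose and 17 fell in polysome-associated mRNA, against 14.7% and 14.6%. Their median differences were -0.42, -0.50, -0.17 and -0.26 in that order, against 0.11, 0.02, 0.13 and 0.09 over all genes.

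Of 10 PI3K subunits and adaptors, 5 fell with activation in each fraction of Foxp3- cells, where 12.5% (cytosolic) and 16.4% (polysome) of all genes fell, and none rose. Pik3ip1, an inhibitor of PI3K, measured 9.25 and 9.28 in cytosolic mRNA of ex vivo Foxp3- cells, 7.12 to 7.48 in ex vivo Foxp3+ cells, 4.96 to 5.37 in activated Foxp3- cells and 5.45 to 5.49 in activated Foxp3+ cells. It fell with activation in both subsets, with differences of -4.10 and -4.19 in Foxp3- cells and -1.83 and -2.09 in Foxp3+ cells, cytosolic first. Pik3ip1 and the PI3K adaptor Pik3r5 were already lower in ex vivo Foxp3+ cells (-1.96 and -1.79 in cytosolic mRNA), as was the catalytic subunit Pik3cd (-2.03, adjusted p = 0.0366). The part of the differing control signals of the ex vivo subsets in these differences was not tested.

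Of 9 other mTOR complex subunits and assembly factors, 1 to 4 rose and 0 to 2 fell with activation in the 4 comparisons. Of all genes 13.6% to 16.9% rose and 12.5% to 16.4% fell. Akt1s1 (PRAS40, an mTORC1 inhibitor and AKT substrate) rose by 1.30 in cytosolic mRNA of Foxp3- cells and by 1.45 in polysome-associated mRNA of Foxp3+ cells. In the list of the TSC partner and the energy and stress arm, 1 of 9 genes rose in the cytosolic mRNA of Foxp3- cells, Hif1a, by 2.22. That count is near the 13.6% of all genes that rose there. Ddit4 (REDD1), a stress-induced activator of the TSC complex, measured 9.17 to 10.45 in polysome-associated mRNA of activated Foxp3- cells and 12.70 to 13.15 in that of activated Foxp3+ cells, a difference of 3.11 (adjusted p = 0.000931). It rose with activation by 3.52 in polysome-associated mRNA of Foxp3+ cells.

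Of 26 genes of the amino acid and lysosome arm, 2 to 6 rose and 8 to 10 fell with activation in the 4 comparisons, where 13.6% to 16.9% of all genes rose and 12.5% to 16.4% fell, so the rises are near the background. Sec13 rose in polysome-associated mRNA by 1.91 in Foxp3- and 2.44 in Foxp3+ cells, while Sesn1, a sestrin that restrains mTORC1, fell by 3.57 in cytosolic mRNA of Foxp3+ cells.

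Of 15 mTORC1 and AKT targets, 4 were higher and 2 lower in the polysome arrays of activated Foxp3+ than Foxp3- cells, near the 18.7% and 13.7% of all genes. Their median difference was 0.89, against 0.20 over all genes. The higher 4, named after their values were seen, were Rps6kb2 (2.73), Eif4ebp2 (2.28), Foxo1 (1.46) and Gsk3a (1.08, adjusted p = 0.131, with overlapping arrays). The lower 2 were Rps6, the ribosomal protein phosphorylated by S6 kinases, and Eif4e, the cap-binding factor whose repressors mTORC1 inactivates. Eif4e measured 8.19 and 8.32 in polysome-associated mRNA of activated Foxp3- cells and 4.50 and 5.61 in that of activated Foxp3+ cells, a difference of -3.20 (adjusted p = 0.000527). Rps6 measured 8.96 and 9.24 against 3.86 and 4.20, a difference of -5.07 (adjusted p = 0.000747), with the latter pair under the array medians.

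Of 6 SGK family members and SGK1 substrates, 1 was higher in cytosolic (Wnk1) and 2 in polysome-associated mRNA (Sgk2 by 1.38 and, named after its value was seen, Ndrg1 by 0.89) of activated Foxp3+ than Foxp3- cells. Of all genes 13.8% and 18.7% were higher, so these counts are near the background. Wnk1, a kinase that SGK1 phosphorylates, rose with activation by 1.87 in cytosolic mRNA of Foxp3+ cells and was 1.86 higher there than in activated Foxp3- cells. Ndrg1, which encodes a substrate of SGK1, fell with activation in all 4 comparisons, with differences of -2.00 and -2.44 in Foxp3- cells and -1.93 and -1.81 in Foxp3+ cells, cytosolic first. Its mRNA thus fell in both subsets while that of Sgk1 fell in 1 and rose in the other. These are mRNA levels and do not read the activity of the kinase.

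**Figure D5:**
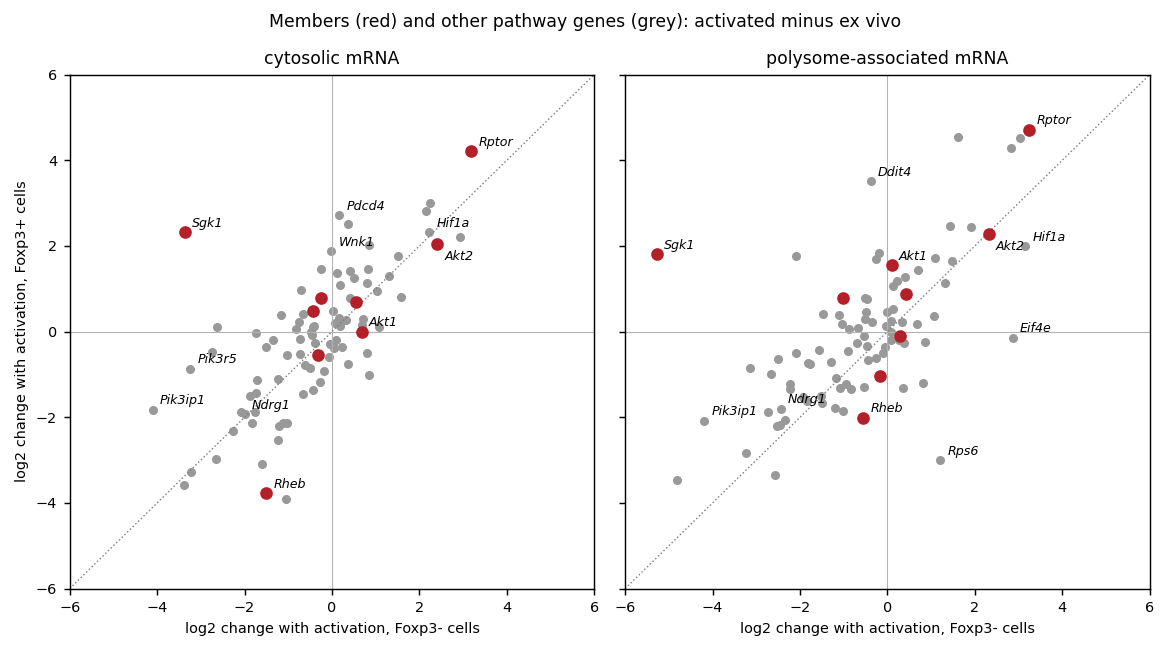
Log2 change with activation in Foxp3- cells (horizontal axis) and Foxp3+ cells (vertical axis) in cytosolic (left) and polysome-associated mRNA (right), for the 9 genes (red) and the 81 other pathway genes (grey), with the dotted line marking equal change. Rptor and Akt2 lie in the upper right of both panels, and Sgk1 lies at -3.37 and 2.31 in cytosolic and -5.27 and 1.81 in polysome-associated mRNA.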

How the data were processed

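RNA was amplified with the Ovation Pico WTA system and hybridised to Affymetrix arrays. The authors normalised all 16 arrays together by RMA with gene-level probe set definitions, and the deposited values are log2 intensities. From 16539 features, 64 control probe sets were left out, and 16475 genes were tested (15780 with a symbol). One mean per group was fitted to all 16 arrays with limma 3.58.1 in R 4.3.3 (two-sided moderated test, 8 residual degrees of freedom), and p-values were adjusted by Benjamini-Hochberg over all genes. Calls were at an adjusted p of 0.15 between subsets and for activated translation, 0.3 for ex vivo translation and 0.05 elsewhere. The thresholds for translation and for activated subsets follow the study, and the others were set here. Standard errors are from this fit, which pools the residual variance of a gene over all 8 groups, and intervals are at 95%. Where activated replicates spread more than ex vivo replicates, errors, intervals and p-values are too narrow for activated cells and too wide ex vivo.

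The 9 genes and the lists were chosen with earlier results of these data known. All 9 are named, and of the pathway lists at most 3 higher and 3 lower per comparison, by smallest adjusted p. The genes marked as named after their values were seen are outside that rule. Up to 22 alternatives a comparison were run (23 for translation), among them leaving out each array. The analysis of covariance took consecutive array numbers as cytosolic and polysome pairs, a pairing that the labels do not state. The fit was checked on data with known differences. Promoters were read with Python 3.11.15 and pandas 2.3.3, and figures drawn with matplotlib 3.10.9.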

Additional observations from a re-analysis of the deposited data

Results flagged for a closer look

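Among the 9 genes, the activation change differed between subsets for Sgk1, by 5.68 in cytosolic and 7.08 in polysome-associated mRNA (limma, Foxp3+ minus Foxp3-). The polysome minus cytosolic difference of activated cells differed between subsets for Akt1 (2.23) and Tsc1 (-1.67), and neither was called by the analysis of covariance.

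Of the other pathway genes, the same difference between activated subsets was called for Wdr24 (2.25), Kptn (2.10), Sgk2 (1.61), Pdcd4 (-2.43), Mios (-1.30) and Eif4e (-1.96). The activation change in cytosolic mRNA was higher in Foxp3+ than Foxp3- cells for Pik3ip1 (2.27), Pdcd4 (2.56) and Pik3r5 (2.37). In polysome-associated mRNA it was higher for Ddit4 (3.90), Pik3ip1 (2.11) and Kptn (2.30) and lower for Eif4e (-3.01) and Rps6 (-4.21). For Pik3ip1 a higher change was a smaller fall, in cytosolic mRNA -1.83 in Foxp3+ and -4.10 in Foxp3- cells. Its ex vivo cytosolic level was already lower in Foxp3+ cells (-1.96), and its activated cytosolic levels lay near the array medians. Cytosolic Pik3r5 fell in Foxp3- cells (-3.24) and was also lower in ex vivo Foxp3+ cells (-1.79).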

How the results depend on the processing

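The labels pair no arrays across groups and no array number is shared, so no replicate block was fitted, and the pairs of the analysis of covariance were assumed. Of 3564 recomputed single-gene values over 162 results, 3415 kept their side of the threshold (107 of them, called in neither setting, changed sign), 83 lost the call, 66 gained it and 0 reversed a called direction. A fit to the compared groups only and array weights, in that order, called 2 and 2 of the 9 genes between ex vivo subsets in cytosolic mRNA (0 in the full fit) and 2 and 3 in polysome-associated mRNA (0). They called 2 and 1 between activated subsets in cytosolic mRNA (4), 1 and 1 in polysome-associated mRNA (6), 0 and 0 between fractions of activated Foxp3+ cells (1), and 0 and 0 in activated translation (2). The fit to the compared groups called 2 genes in the polysome activation of Foxp3+ cells (6). Centring each array on its median called 1 ex vivo cytosolic gene, and keeping genes above the median mean called 1 between fractions of activated Foxp3- cells (0). Leaving out each array gave 0 to 1 ex vivo in either fraction, 1 to 8 between activated subsets on polysomes, 0 to 2 and 0 to 3 between fractions of activated Foxp3- and Foxp3+ cells, 1 to 4 in activated translation, 1 to 2 in the polysome activation difference between subsets, and 0 to 1 for the change of the fraction difference in Foxp3+ cells. The cause of these shifts was not tested. Over all genes, the fit to the compared groups only and array weights called 5185 and 5326 between ex vivo subsets in cytosolic mRNA (765 in the full fit), 3436 and 4103 on polysomes (638), 490 and 1368 between activated subsets in cytosolic mRNA (4279), 855 and 1996 on polysomes (5338), and 0 and 126 in activated translation (1232), where the analysis of covariance called 2989. The shares of all genes given beside the counts hold for the full fit. With 2 arrays a group, precision is limited, and values under the array medians give only uncertain sizes.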

Other observations

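The genes whose 8 group means followed those of Sgk1 most closely were Mtcl1 (r = 0.99, with a span of only 0.44 between its own group means), S1pr1, the receptor that lets T cells leave lymph nodes (r = 0.98, span 5.53), and Ift172 (r = 0.95, span 1.36). For Akt2 they were Upf1, Snrnp35 and Atl3 (r = 0.997, 0.997 and 0.996, spans 3.81, 3.70 and 3.28), for Rptor Ttll4, Epx and Tmem245 (r = 0.99), and for Rheb Usp42, Psmb1 and Idh3b (r = 0.99). For Mtor they were Spag8, Cpa1 and Dscam (r = 0.99), for Akt1 Zmynd19, Chac2 and Tmem242 (r = 0.94 to 0.95), for Tsc2 Nr2c1, Edem2 and Mob2 (r = 0.94 to 0.95) and for Tsc1 Fbxw9, Krtap17-1 and Kctd20 (r = 0.93 to 0.94). The points of each r are 8 means over 16 arrays in 3 array series. The genes were picked for likeness out of all genes with a symbol, so the r values are descriptions.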
